A study of Mus musculus with 36 samples.

Results

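The genes of this account are the somatic and the germ-line forms of 4 glycolytic enzymes in the mouse: Gapdh and Gapdhs (glyceraldehyde-3-phosphate dehydrogenase), Pgk1 and Pgk2 (phosphoglycerate kinase), Ldha, Ldhb and Ldhc (lactate dehydrogenase) and Pgam1 and Pgam2 (phosphoglycerate mutase). They were taken by name, 9 of 55991 gene identifiers over 6 RNA-seq count tables, and all 9 were listed in each table. Cauda spermatozoa (swim-up preparations of cells stored at the end of the epididymis) and round spermatids (haploid cells of the testis before they elongate, from a density gradient) came from C57BL/6 wild-type males (C57BL/6N in the study's methods). These were put on HFD or LFD, diets rich or low in fat, at an age of 6 weeks and kept on it for 2 weeks. Morulae were grown from wild-type oocytes of females outside the diets, fertilised in vitro with such males' sperm, and are grouped by the father's diet. Liver, eWAT (epididymal white fat) and gastrocnemius (calf muscle) came from chow-fed male offspring of HFD fathers, all of them wild type, some glucose tolerant and some not; their age is not given in the sources used here. Each tissue had 6 libraries, and the diets could be compared, 3 libraries against 3, in spermatozoa and in morulae. For round spermatids and the offspring tissues the column names give neither sample nor condition, so these libraries are described by tissue only.

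Glycolysis splits glucose to pyruvate in the cytosol, and lactate dehydrogenase turns pyruvate and lactate into each other. Spermatozoa carry it out along the tail, with enzymes anchored to the fibrous sheath, and mouse sperm depend on it for motility. Several of its enzymes are made in spermatids from genes of their own. Gapdhs is the sheath-bound dehydrogenase, Pgk2 is an intronless copy of the X-linked Pgk1, Ldhc is the testis lactate dehydrogenase, and Pgam2, the muscle mutase, is also the form of the testis. Ldha is the form of fast muscle and Ldhb that of heart. On GRCm38, as the count tables place them, Ldha (chr7:46841475-46855627) and Ldhc (chr7:46861203-46878142) are neighbours on the plus strand, and Gapdhs (chr7:30729775-30743681) lies on the minus strand of the same chromosome. Gapdh (chr6:125161715-125166467) and Ldhb (chr6:142490249-142507957) are on the minus strand of chromosome 6. Pgk1 (chrX:106187100-106203699) and Pgk2 (chr17:40207015-40208640 in the sperm table) are on the plus and the minus strand, as are Pgam1 (chr19:41911871-41918664) and Pgam2 (chr11:5801640-5803733).

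The 4 genes that head the germ-line side are shown by the bases just upstream of their RefSeq start sites (GRCm38.p6, 5′ to 3′ along the gene), since their transcripts were high together in round spermatids. Capitals mark the motifs that were searched in the 250 bases before the start site, on both strands. The cAMP response element, a site of the CREB and CREM family, was searched as TGANGTCA (the full element, with a free base in its middle). Its core was searched as TGACGT, which can overlap the full element. The CCAAT box was searched by the letters of its name. The GC box was searched as GGGCGG. The A/T-rich site of the MEF2 type, known from muscle genes, was searched as CTATTTTTA. Bases that lie inside the gene as the count tables annotate it are not printed. The motifs were chosen after these sequences had been seen.
Gapdhs, minus strand, chr7:30743682-30743931: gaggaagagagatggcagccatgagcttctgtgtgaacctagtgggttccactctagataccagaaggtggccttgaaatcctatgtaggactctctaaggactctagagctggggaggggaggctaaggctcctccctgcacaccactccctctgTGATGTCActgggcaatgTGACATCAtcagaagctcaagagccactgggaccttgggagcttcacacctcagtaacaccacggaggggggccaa
Pgk2, minus strand, chr17:40208641-40208859: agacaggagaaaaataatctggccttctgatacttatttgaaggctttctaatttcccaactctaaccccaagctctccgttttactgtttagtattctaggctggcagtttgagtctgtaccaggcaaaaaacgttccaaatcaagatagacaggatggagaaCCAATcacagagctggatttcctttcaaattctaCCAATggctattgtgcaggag
Ldhc, plus strand, chr7:46861013-46861202: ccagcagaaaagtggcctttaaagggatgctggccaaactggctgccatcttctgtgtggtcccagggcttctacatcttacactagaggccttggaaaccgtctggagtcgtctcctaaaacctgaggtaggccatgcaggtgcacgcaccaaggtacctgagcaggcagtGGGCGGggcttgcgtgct
Pgam2, minus strand, chr11:5803797-5804046: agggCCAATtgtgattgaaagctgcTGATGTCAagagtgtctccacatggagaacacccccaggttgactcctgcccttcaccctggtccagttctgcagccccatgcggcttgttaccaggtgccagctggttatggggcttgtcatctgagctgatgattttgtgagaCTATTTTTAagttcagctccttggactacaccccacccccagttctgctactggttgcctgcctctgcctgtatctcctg
Gapdhs held 2 full cAMP elements, at bases -94 to -87 and -76 to -69 from the start. Ldhc held 2 core elements, at -61 to -56, which starts at the last printed base and is not in capitals, and at -47 to -42, in the stretch not printed, and a GC box. Pgk2 held 2 CCAAT boxes and neither cAMP motif. Pgam2 held 1 full cAMP element, 1 CCAAT box and 1 site of the MEF2 type. Of 32851 promoters of this length, 7.49% held the full cAMP element, 6.47% the core, 33.8% the CCAAT box, 32.7% the GC box and 0.454% the MEF2-type site. Among the somatic forms, the upstream bases of Ldha held 1 full cAMP element, overlapping 2 matches of the core, while Gapdh, Pgk1, Ldhb and Pgam1 held neither. A match describes the letters and is no measure of binding.

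Round spermatids, spermatozoa and morulae were sequenced from Nextera libraries, which cover the whole transcript, and their levels are given as CPM (the per-million share of all counts of the library) per kb of gene length. Offspring tissues were sequenced from the 3′ end (QuantSeq) and are given as CPM. Library totals were 20138842 to 31056066 counts in round spermatids, 2560219 to 4062321 in spermatozoa, 11471251 to 12153141 in morulae and 369772 to 4055537 in the offspring tissues. Where a gene had no count, up to 3 counts remain possible, or 0.738 to 1.17 CPM in spermatozoa and 0.247 to 0.262 CPM in morulae; such limits, like the intervals below, cover counting error only. Genes encoded in mtDNA took 78.1 to 84.3% of the counts of HFD sperm and 43.5 to 64.7% of those of LFD sperm, against 1.96 to 2.38% in round spermatids.

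In round spermatids the germ-line form made up almost the whole of each pair. Gapdhs, the tail dehydrogenase, stood at 637 to 754 CPM per kb (median 695) and Gapdh at 3.93 to 5.45 (median 4.37), so that Gapdhs was 99.2 to 99.5% of the pair. Pgk2 was 99.5 to 99.6% of phosphoglycerate kinase, with 403 to 486 CPM per kb (median 444) against 1.65 to 2.52 (median 1.75) for Pgk1. Pgam2 was 99.6 to 99.7% of the mutase, with 622 to 751 CPM per kb (median 667) against 1.83 to 2.81 (median 2.30) for Pgam1. The 6 libraries lay within 1 percentage point of each other in all 3 pairs. In bulk RNA, fewer cells of a type and less RNA per cell cannot be told apart.

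Lactate dehydrogenase was less one-sided. Ldhc led all 9 genes in every round spermatid library, at 1572 to 1705 CPM per kb (median 1654), and made up 86.8 to 87.8% of the family. The size of this share rests on the length used. By counts it was 76.0 to 77.5%, and with the length of the longest coding transcript 80.7 to 82.0%. The remainder was Ldha, at 226 to 240 CPM per kb (median 237), the one somatic form of the 9 that was abundant in these cells. Ldhb stood at 2.52 to 3.71 CPM per kb (median 2.79), 1.04 to 1.54% of Ldha and Ldhb together. Below Ldhc, the levels per kb of Gapdhs and Pgam2 overlapped and changed places between libraries. Pgk2 lay below both and above Ldha in all 6. This order rests on the division by gene length (3310 bases for Ldha, 1592 for Pgk2, 840 for Pgam2). In plain CPM, Ldha (749 to 795) lay above Pgk2 (641 to 774) in every library, and Pgk2 above Pgam2 (523 to 631).

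**Figure D1:**
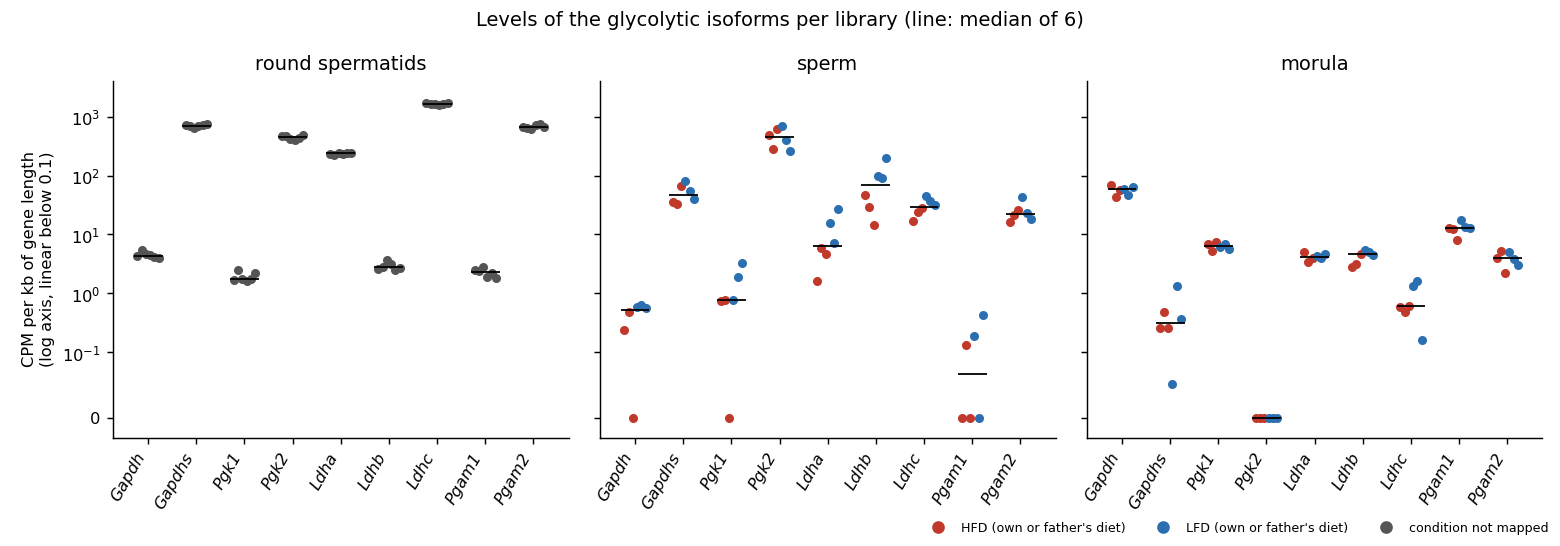
Level of each glycolytic isoform in every library, in CPM per kb of gene length, on an axis that is logarithmic above 0.1 and linear below; points are libraries, coloured by diet where it is mapped, and lines are medians of 6. Ldhc led in round spermatids, Pgk2 in spermatozoa (258 to 682 CPM per kb) and Gapdh in morulae (43.4 to 69.1), where Pgk2 had no count.

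Spermatozoa kept the germ-line forms of 3 pairs and a different order of levels. Pgk2 was 98.7 to 100% of its pair, Gapdhs 98.6 to 100% and Pgam2 97.7 to 100%, and no difference of the 3 shares from round spermatids passed the exact permutation test (adjusted p = 0.964, 0.337 and 0.964, over 21 comparisons of tissues and shares). The somatic partners had few counts, with 0 to 8 for Gapdh, 0 to 19 for Pgk1 and 0 to 2 for Pgam1 in a library. Leaving out library h4 put the Gapdhs share of sperm below that of round spermatids (a difference of 0.435 points, exact permutation test, adjusted p = 0.0424). Leaving out l4 put the Pgk2 share above it (difference of spermatids less sperm -0.231 points, exact permutation test, adjusted p = 0.0364).

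Pgk2 took the lead among the 9 genes in all 6 sperm libraries, at 258 to 682 CPM per kb (median 445). Per kb, Pgk2 was 8.23 to 28.8 times Ldhc in spermatozoa (median 13.7) and 0.253 to 0.285 times Ldhc in round spermatids (median 0.271). Against Gapdhs the same ratio was 6.58 to 13.8 in spermatozoa and 0.593 to 0.673 in round spermatids, and neither ratio overlapped between the cells. Gapdhs stood at 33 to 80.0 CPM per kb in spermatozoa (median 46.7), Ldhc at 16.9 to 44.1 (median 29.7) and Pgam2 at 16.3 to 42.9 (median 22.2). These ratios are taken within a library and so do not move with the mtDNA share.

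The lactate dehydrogenase of the sperm libraries was the exception. Ldhc fell from a mean of 87.3% of the family in round spermatids to 32.2% in spermatozoa (exact permutation test, adjusted p = 0.00379), without overlap. Ldhb, the heart form, rose from a mean of 1.23% of Ldha and Ldhb in round spermatids to 87.2% in spermatozoa, again without overlap (exact permutation test, adjusted p = 0.00379, raw p = 0.00216, the smallest that 6 libraries against 6 allow). Per library, sperm held 83 to 807 counts of Ldhb and 16 to 226 of Ldha. The Ldhc share of single sperm libraries was 26, 40.1 and 59.7% on HFD and 28.0, 27.3 and 12.1% on LFD.

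The sperm libraries also held transcripts of another cell type, in unequal amounts. Of 6 markers of the epididymal epithelium, whose cells line the duct in which sperm are stored, 4 or 5 had counts in each sperm library, and their sum was 1993 to 3812 CPM on HFD and 4193 to 33558 CPM on LFD. In round spermatids the same sum was 3.33 to 4.89 CPM. Crisp1, a secreted epididymal protein, had 5742, 10577 and 5833 counts in the HFD libraries h1, h3 and h4 and 7207, 23806 and 60122 in the LFD libraries l1, l2 and l4. Since mtDNA genes took unequal parts of these libraries, the sums were also taken over nuclear genes alone, and ran from 9504 (h4), 11449 (l1), 16187 (h1), 17406 (h3) and 32744 (l2) to 59367 CPM (l4). In the same order of libraries, Ldhb had 108, 421, 465, 212, 406 and 558 CPM of nuclear genes. It was lowest in h4 and highest in l4, at the ends of the marker range, and h1 and l1 stood above h3 and l2 against the order of the markers. On the TMM scale used for the diets, Ldhb was highest in h1 (143) and not in l4 (124). In that order of libraries, the Ldhc share was 59.7, 28.0, 26, 40.1, 27.3 and 12.1%, again with h3 out of order. Leukocyte markers summed to 55.7 to 98.0 CPM and erythroid markers to 31.6 to 237 CPM in sperm. The part of these cells in the Ldhb and Ldha values was not tested. The study used only sperm samples in which no somatic cells were seen.

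**Figure D2:**
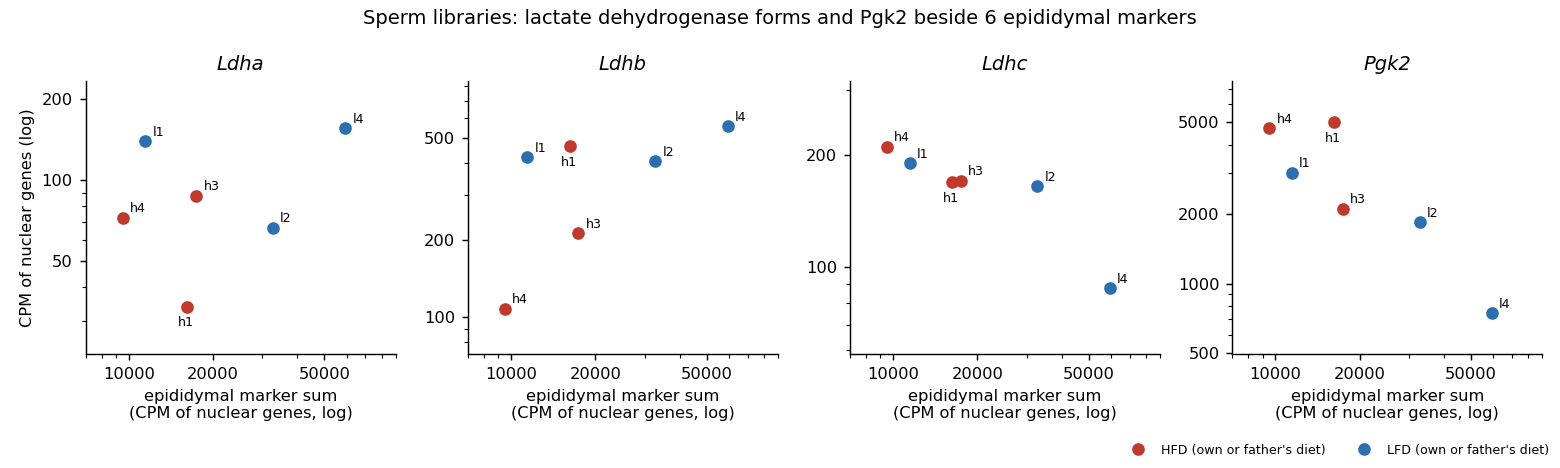
CPM over nuclear genes of Ldha, Ldhb, Ldhc and Pgk2 in each of the 6 sperm libraries (vertical, log axis) against the summed CPM over nuclear genes of 6 epididymal markers (horizontal, log axis), red for HFD and blue for LFD, with library names. Ldhb had 108 CPM in h4 and 558 in l4, the ends of the marker range, with h3 (212) below l1 and h1; Pgk2 had its lowest value, 744 CPM, in l4.

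Morulae used the somatic side. Gapdh led in all 6, at 43.4 to 69.1 CPM per kb (median 58.2), followed by Pgam1 at 8.10 to 17.4 (median 12.9) and Pgk1 at 5.30 to 7.37 (median 6.40). Pgk2 had no count in any morula library, 0 of 1009 counts of the pair, which allows a share of up to 0.297%. Gapdhs was 0.0859 to 2.78% of its pair (1 to 25 counts) and Ldhc 1.71 to 15.5% of its family (3 to 30 counts). Ldha and Ldhb had medians of 4.16 and 4.64 CPM per kb, and Ldhb was 35.4 to 56.5% of the 2. Their order rests on the length used, since with the length of the longest coding transcript Ldhb was 26.6 to 46.2%, below Ldha in all 6 libraries. Pgam2 was 18.9 to 30.0% of the mutase, 23 to 51 counts a library. All 5 shares differed from those of round spermatids without overlap (exact permutation test, adjusted p = 0.00379 for each). Against spermatozoa all 5 differed as well, the Ldhc share with overlap (exact permutation test, adjusted p = 0.00649).

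In the offspring tissues, the Ldh family and the muscle mutase were the members with a measurable level. Ldha was the main lactate dehydrogenase, at 80.5 to 280 CPM in liver (median 178), 38.1 to 83.8 in eWAT (median 74.1) and 135 to 347 in gastrocnemius (median 303). Ldhb was 4.81 to 11.7% of Ldha and Ldhb in eWAT and 0 to 1.20% in liver, without overlap (liver minus eWAT -8.45 points between the means, exact permutation test, adjusted p = 0.00379). In gastrocnemius it was 0.949 to 31.5% and overlapped both. Its highest values, 31.5% (23 of 73 counts, Wilson 95% interval 22 to 42.9%) and 14.2%, were in G4 and G7, the shallowest libraries. Liver minus gastrocnemius was -9.09 points over all libraries (exact permutation test, adjusted p = 0.00649) and -4.65 points without G4. Pgam2, the muscle mutase, had 439 to 772 CPM in gastrocnemius (median 710), against 0 to 1.75 CPM in liver and 0 to 15.4 CPM in eWAT. Ldhc had no count in liver (0 of 2502 counts of the family, which allows up to 0.120%), and Pgk2 and Gapdhs had none in liver or gastrocnemius.

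The somatic forms Gapdh, Pgk1 and Pgam1 were nearly missing from the 3′ libraries. Pgam1 had 0 counts in all 18, Pgk1 4 counts over all 18 and Gapdh 0 to 8 counts a library, although every one of these tissues uses glycolysis or its reverse, so no share of those pairs is given for offspring tissues. Gapdh has many near copies in the genome, and within 1 mismatch 83.7% of the 50-base windows in the last 300 bases of its longest coding transcript also occur in annotated transcripts of other genes. None of the 50-base windows in the last 300 bases of Pgk1 or Pgam1 do. The cause was not tested. In the whole-transcript libraries, 82.6% of the 75-base windows of Gapdh, 67.5% of those of Pgk1, 42.7% of those of Ldhb, 40.6% of those of Pgam1 and 27.6% of those of Ldha were shared in this way, but 0% of those of Pgk2, Ldhc and Pgam2. The levels of the somatic forms, Gapdh above all, are therefore uncertain. Over the 6 round spermatid libraries, 201 annotated Gapdh pseudogenes held 18811 counts and Gapdh itself 2776. Of the 18811, 11193 lay in 1 pseudogene, Gm6981, which held 58 of 390 pseudogene counts in spermatozoa. With all these pseudogenes counted as Gapdh, Gapdhs was 88.6% of the counts in round spermatids and 78.9% in spermatozoa. Without them it was 98.4 and 98.0% of the counts, not divided by length. Gapdhs overlaps genes on the other strand, among them Tmem147os with 1279 counts in round spermatids against 168299 for Gapdhs. Gapdh in turn overlaps Iffo1 there, which had 6552 counts in round spermatids against 2776 for Gapdh. The part of these overlaps in the counts was not tested.

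**Figure D3:**
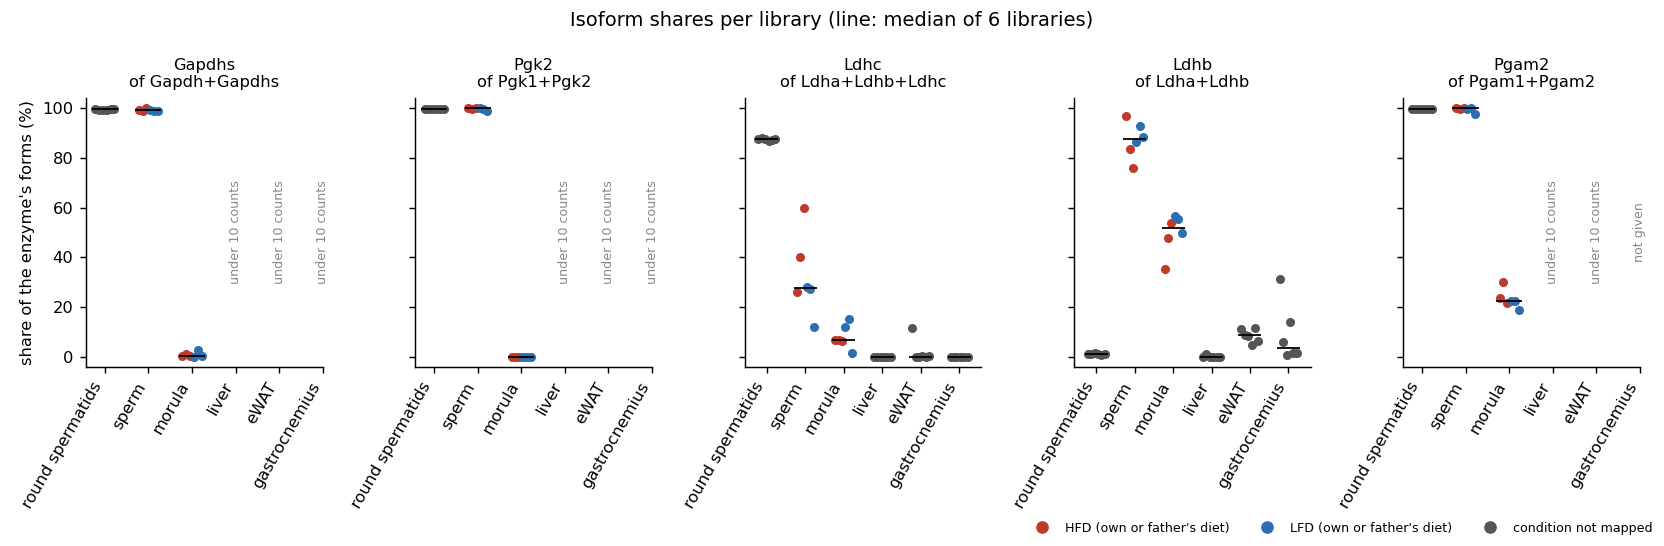
Share of the germ-line form in each enzyme, and of Ldhb in Ldha and Ldhb, per library and tissue (per kb in round spermatids, sperm and morulae, by counts in the offspring tissues), with lines at the median of 6; tissues in which some library had under 10 counts of the enzyme, and Pgam2 in gastrocnemius, where Pgam1 had no count, are left without a share. Gapdhs, Pgk2 and Pgam2 lay at 97.7% or more in round spermatids and sperm, and Ldhc at 86.8 to 87.8% in round spermatids and 12.1 to 59.7% in sperm.

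One eWAT library, F17, held germ-line forms that the other 5 lacked. It had 15 counts of Gapdhs, 15 of Pgk2 and 39 of Ldhc, whereas the others had 0, 0 and 0 to 1. Ldhc was 11.8% of lactate dehydrogenase in F17 (Wilson 95% interval 8.74 to 15.7%) and at most 0.369% in the others. Protamine and tail genes were present in the same library, with 74 counts of Prm1, 82 of Prm2 and 29 of Odf1. Sox9, from the list of 5 Sertoli and Leydig markers, had 1130 counts there against 11 to 26 elsewhere. That list summed to 13.8 to 331 CPM in eWAT (median 18.4). Nearly all of the highest sum, that of F17, was Sox9, and the other markers of the list added little to it. The 6 epididymal markers summed to 0 to 18.7 CPM in eWAT (median 0.702), and their highest sum was in another library than F17. Without F17, the mean Ldhc share of eWAT differed from that of liver by -0.129 points (liver minus eWAT) in place of -2.07. The part of other cells in these values was not tested.

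The diet comparison asked whether the forms differed between sperm of HFD and LFD males. Counts were scaled by TMM, which sets libraries on a common scale by the bulk of their genes, and tested by edgeR's quasi-likelihood test with Benjamini-Hochberg adjustment over 8643 genes. Of the 9 genes 6 passed the filter on low counts; Gapdh, Pgk1 and Pgam1 did not. No member was called, and no gene of the table was (0% called in either direction; 13% of all genes had an unadjusted p under 0.05, 8.38% higher and 4.63% lower on HFD). By the other tools, 253 genes passed in DESeq2 and 0 in limma-voom, with no member among them. Pgk2 had 1552, 658 and 2259 TMM-scaled CPM in h1, h3 and h4 and 740, 425 and 165 in l1, l2 and l4, with overlap of the diets. Its log2 fold change of HFD over LFD was 1.75 ± 0.66 (SE; edgeR, unadjusted p = 0.0185, adjusted p = 0.285; 0.0766 to 0.975 over the alternatives). Gapdhs had 111, 75.6 and 240 TMM-scaled CPM on HFD and 85.9, 56.7 and 24.8 on LFD, also overlapping, for a log2 fold change of 1.35 ± 0.57 (edgeR, unadjusted p = 0.0338, adjusted p = 0.334). Pgk2 and Gapdhs were the 2 members with an unadjusted p under 0.05. Their sizes rested on single libraries: Pgk2 had 1.30 without h4 and 2.42 without l1, and Gapdhs 0.73 and 1.90.

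On the TMM scale, Ldhc and Pgam2 were higher in every HFD library, without passing the test. Ldhc had 52.4, 53.2 and 101.5 TMM-scaled CPM on HFD against 46.5, 38.0 and 19.5 on LFD, a log2 fold change of 0.99 ± 0.51 (edgeR, adjusted p = 0.430). Pgam2 had 26.8, 25.6 and 50.4 against 24.1, 12.6 and 5.98, a log2 fold change of 1.27 ± 0.60 (edgeR, adjusted p = 0.395). Without h4 and without l1, Ldhc had 0.60 and 1.35 and Pgam2 0.87 and 1.97. Over all genes tested 8.21% were higher in every HFD library and 12.2% lower, 20.4% in all, against 2 of the 6 members tested. Ldha and Ldhb had log2 fold changes of -0.21 ± 0.57 and -0.30 ± 0.49 (edgeR, adjusted p = 0.919 and 0.851). The median over the 6 members tested was 1.13, and over all genes -0.07. The members' values rest on the scaling. In plain CPM, Ldhc was lower in every HFD library, 26.7, 37.4 and 44.3 against 69.7, 58.4 and 49.6, and Pgam2 overlapped. Over nuclear genes alone both overlapped, Ldhc with 170, 171 and 211 CPM on HFD against 190, 165 and 87.8 on LFD. With library totals in place of TMM the median of all genes was -1.84, Pgk2 had 0.02, Gapdhs -0.39, Pgam2 -0.41 and Ldhc -0.73. On that scale Ldha (-2.05, adjusted p = 0.0321) and Ldhb (-2.13, adjusted p = 0.0179) passed edgeR's test, among 3357 genes called, 3356 of them lower.

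Marker lists moved on the TMM scale too. All 5 tested markers of spermatids and sperm had positive log2 fold changes, 1.20 to 2.00, as did 5 of 5 leukocyte markers (1.09 to 3.20) and 4 of 4 erythroid markers (1.51 to 2.34), whereas the 3 tested epididymal markers had -0.97 to -0.52, none of these called. Their part in the members' values was not tested.

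**Figure D4:**
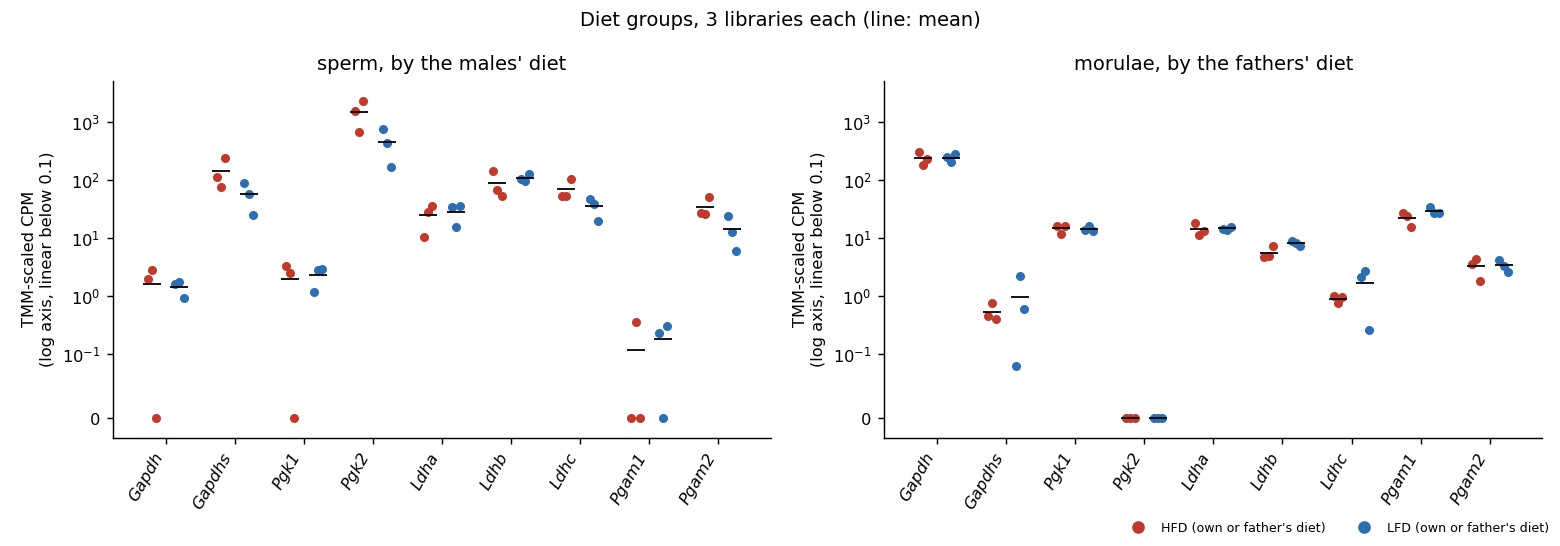
TMM-scaled CPM of the 9 isoform genes by diet in spermatozoa and morulae, on an axis that is logarithmic above 0.1 and linear below; points are the 3 libraries of a diet and lines their means. Pgk2 in sperm ran from 658 to 2259 on HFD and from 165 to 740 on LFD, and in morulae the diets overlapped for all genes but Ldhb.

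The shares of the forms showed no difference between the diets that passed a test. Ldhc was 41.9% ± 16.9 (SD, n = 3) of the family in HFD sperm and 22.4% ± 8.94 (SD, n = 3) in LFD sperm, a gap of 19.4 points with overlap (exact permutation test, p = 0.3, adjusted p = 0.6). The gap was 10.6 points without h4 and 27.4 without h1. Ldhb was 85.3% ± 10.6 of Ldha and Ldhb on HFD and 89.1% ± 3.27 on LFD (SD, n = 3 each; exact permutation test, p = 0.6). The Gapdhs, Pgk2 and Pgam2 shares were between 98.9 and 99.9% on either diet. Exact permutation tests of 3 libraries against 3 cannot go below p = 0.1, so none of the 9 shares tested in the 2 experiments could have passed.

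In morulae the members were close between the fathers' diets. Of 9 genes 7 were tested among 13447, none was called, and none of all genes was (0% called; 6.38% with an unadjusted p under 0.05, 3.55% higher and 2.83% lower with HFD fathers). No member had an unadjusted p under 0.05. DESeq2 called 16 genes and limma-voom 0, with no member among them, though DESeq2 gave no adjusted p for Ldhb, Ldhc and Pgam2. Gapdh had 298, 176 and 227 TMM-scaled CPM with HFD fathers and 244, 200 and 273 with LFD fathers, a log2 fold change of -0.03 ± 0.16 (edgeR, adjusted p = 0.987). Ldhb was lower in every library of HFD fathers, 4.60, 4.89 and 7.16 TMM-scaled CPM against 8.66, 8.0 and 7.31, a log2 fold change of -0.52 ± 0.30 (edgeR, adjusted p = 0.807). It was the 1 of 7 members without overlap on this scale, where 12.1% of all genes had none, 5.94% higher and 6.18% lower. In plain CPM the diets overlapped for Ldhb, with 7.41 in MH7 and 7.16 in ML3. Pgam1 had 26.6, 23.7 and 15.5 TMM-scaled CPM against 34.1, 26.8 and 26.2 (-0.41 ± 0.20, edgeR, adjusted p = 0.771). Pgk1, Ldha and Pgam2 had log2 fold changes of 0.05, -0.05 and -0.06, and Ldhc, with 3 to 30 counts, -0.90 ± 0.76. The median over the 7 members was -0.06 and over all genes 0.01. Ldhb made up 45.8% ± 9.45 of Ldha and Ldhb with HFD fathers and 53.9% ± 3.62 with LFD fathers (SD, n = 3 each; exact permutation test, p = 0.2, adjusted p = 0.6).

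The 23 other enzymes of the pathway give the setting. In round spermatids 14 of them had a median above 10 CPM, led by Hk1, the hexokinase of sperm, at 1823 CPM. Aldoart1 and Aldoart2, aldolases of germ cells, had medians of 69.9 and 205 CPM per kb in round spermatids and 11.5 and 3.17 in spermatozoa. Eno4, the enolase of the sperm tail, had 37.7 CPM per kb in round spermatids and 0 to 3 counts in a sperm library. All 3 had medians of 0 to 0.194 CPM per kb in morulae. In the 3′ libraries, Aldoart1 had 13.9 to 38.3 CPM in gastrocnemius (median 32.8) and 1.72 to 7.12 in eWAT. Aldoart2 had 0 to 6 counts a library in gastrocnemius. Eno4 had 0 to 106 counts a library in eWAT (median 0). Ldhal6b had no count in round spermatids, spermatozoa or morulae.

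None of the other enzymes was called between the diets. In spermatozoa 14 of 23 were tested, 11 with positive and 3 with negative log2 fold changes (median 0.80). They ran from 2.14 ± 1.25 for Eno3, the muscle enolase, to -1.44 ± 0.87 for Aldoc, the brain aldolase. Hk1, named after its values were seen, had 1.68 ± 0.64 (edgeR, adjusted p = 0.285), and Aldoart1 1.58 ± 0.65 (edgeR, adjusted p = 0.313). Aldoart2 had 0.19 ± 0.90. In morulae 14 were tested, 6 positive and 8 negative (median -0.08), from 0.42 ± 0.41 for Tpi1 (triose-phosphate isomerase) to -0.84 ± 0.59 for Pklr (liver pyruvate kinase).

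**Figure D5:**
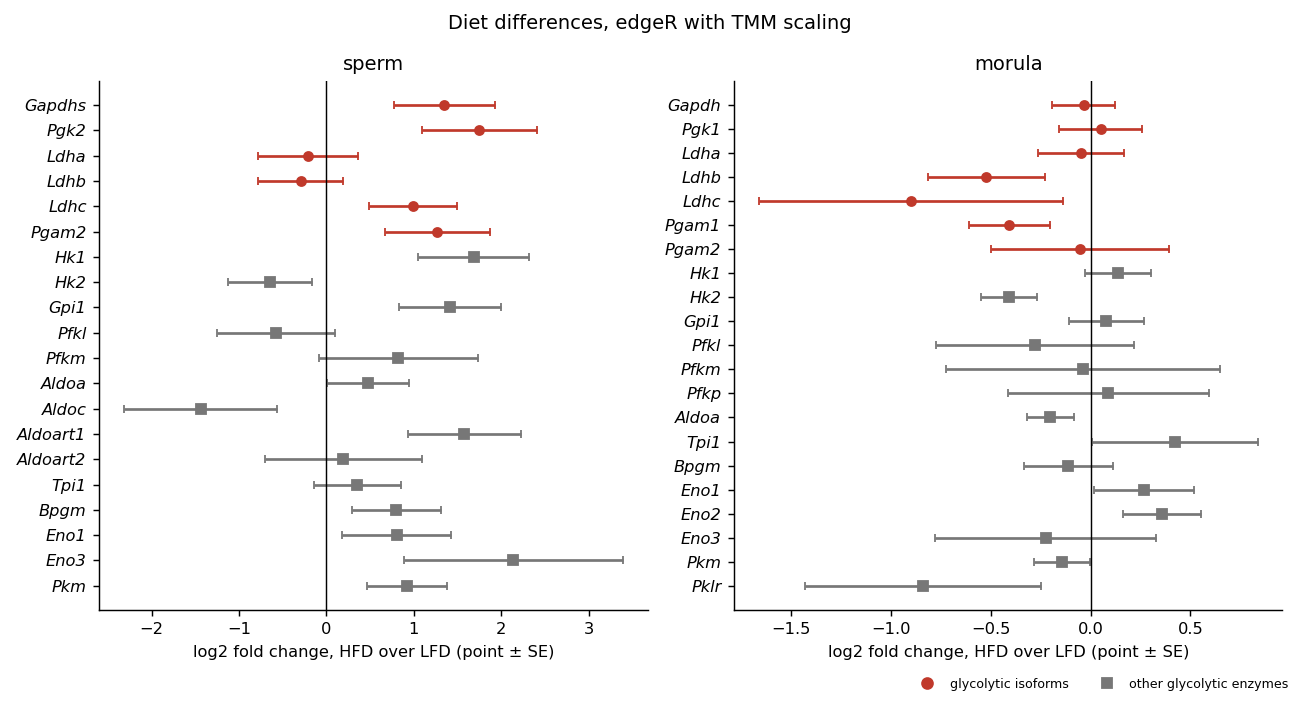
Log2 fold change of HFD over LFD (point, with SE as bar) for each tested isoform gene (red circles) and other glycolytic enzyme (grey squares) in spermatozoa and in morulae, edgeR with TMM scaling. In sperm Pgk2, Gapdhs, Pgam2 and Ldhc lay at 0.99 to 1.75 and Ldha and Ldhb at -0.30 to -0.21; none passed an adjusted p of 0.05.

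Genes whose pattern over the 36 libraries was most like that of a germ-line form were ranked by Pearson's r of log2(CPM + 1) among 14328 genes, as a description, since libraries of a tissue share their source and kit. For Pgk2 they were 1700027A15Rik, 4930571K23Rik, Dbil5, Fam243 and Cabs1 (r from 0.998 to 0.999). For Gapdhs they were Theg, Spert, Nt5c1b, Spata21 and Fscb (0.994 to 0.996), and for Ldhc 1700029F12Rik, Atp8b3, Tnp2, March10 and Prss39 (0.991 to 0.993). For Pgam2 they were Cap2, Asb15, Kcnc1, Mlf1 and Hhatl, with lower values (0.935 to 0.954). The genes nearest to Pgk2 had medians of 151 to 478 CPM in spermatozoa, and those nearest to Ldhc 12.4 to 65.0 CPM. Those nearest to Pgam2 had medians of 14 to 185 CPM in gastrocnemius and 8.44 to 431 CPM in round spermatids.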

How the data were processed

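The deposited values are counts of reads or read pairs per gene. Per the labels and the study's methods, the authors trimmed the reads with BBDuk, ran STAR against GRCm38, then featureCounts, all within one software package; versions are not given in the sources used here. Strandedness of counting is not given either. Counts were used as deposited. Diet was read from the letter in the column names of the sperm and morula tables; title and treatment were followed for the 3 morula samples whose description gives the opposite diet. The 24 columns of the other tables were given a tissue from the name of the table alone. Libraries are named by a letter and the number of their column. The study's methods give 3 mice per diet for round spermatids. For the other libraries the sources used here do not say whether each is a separate animal or pool, so p-values may measure technical spread. Counts of any pair of libraries within a group differed by more than sampling noise (chi-square over its degrees of freedom at least 3.50), so none was a copy.

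Genes were fitted with edgeR 4.0.16 in R 4.3.3 (filterByExpr with a minimum count of 10, TMM, quasi-likelihood test, threshold 0.05). Isoform shares were compared by two-sided exact permutation tests of the difference of means, with Benjamini-Hochberg adjustment, within a library kit and where each library held at least 10 counts of the enzyme. Shares in Nextera libraries used the gene length of the tables. The study's methods give paired reads for round spermatids and morulae and single reads for spermatozoa. The tests between tissues cannot separate the tissue from such differences in sequencing. Shared sequence was searched with blastn 2.17.0+ in GENCODE M21 transcripts (GRCm38), allowing 1 mismatch, and promoters came from RefSeq. DESeq2 1.42.0 and limma-voom 3.58.1 were alternatives. Scripts were tested on simulated data. The named enzymes were the 9 members, those called, the largest rise and fall of the pathway list, 4 germ-line enzymes, and for likeness the 5 highest r among genes with a median of 10 CPM in some tissue. The members and lists were chosen with earlier results of these data known.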

Additional observations from a re-analysis of the deposited data

Results flagged for a closer look

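Member levels and tested shares of round spermatids, liver, eWAT and gastrocnemius were searched for a library far from the other 5 of its tissue. Sperm and morula libraries, 3 to a diet, were not searched. Of 32 sets 10 held such a library, and most of these 10 were in eWAT. Chance gives one in about 1 in 20 sets of normally spread values. That rate does not hold for sets at or near 0 counts, and some sets shared the same counts, so no excess over chance can be read. Library F17 stood apart with Gapdhs (4.27 CPM, others 0), Pgk2 (4.27 CPM, others 0), Ldhc (11.1 CPM, others up to 0.302) and the Ldhc share (11.8%, others up to 0.369%). Pgam2 was 15.4 CPM (51 counts) in eWAT library F25 and 0 to 3.45 CPM in the others. Gapdh was 2.87 CPM in F22, from 5 counts. In gastrocnemius, Pgam2 was 439 CPM in G7 against 681 to 772, and the Ldhc share was 0.187% in G9, from 1 count. In liver the Ldhb share was 1.20% in L14, from 2 counts, and 0 elsewhere. In round spermatids Ldha was 749 CPM in S191 against 780 to 795.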

How the results depend on the processing

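The count of genes called between the diets depended on the filter and the tool. In sperm it was 0 with edgeR, 41 with all genes with a count kept, 253 with DESeq2 and 3357 with library totals, and in morulae 0, 63, 16 and 0; limma-voom gave 0 in both. Leaving out 1 library gave 0 calls in sperm and 0 to 2 in morulae (2 without MH5). With 26903 sperm genes and 29785 morula genes kept in place of 8643 and 13447, more genes were tested; the other causes were not tested. No member was called in any of these but Ldha (-2.05) and Ldhb (-2.13) in sperm with library totals, where Gapdhs (-0.39), Ldhc (-0.73) and Pgam2 (-0.41) turned direction. Without 1 library, Ldha in sperm ran from -0.56 to 0.12, and in morulae Gapdh from -0.25 to 0.13, Pgk1 from -0.030 to 0.18, Ldha from -0.26 to 0.082 and Pgam2 from -0.32 to 0.23.

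The replicate block by column number was possible for numbers 1 and 4 of sperm and gave 2 calls, none a member. Deviations of same-numbered libraries correlated at 0.11 and -0.15, and those of differently numbered ones at -0.24 to 0.28. With so few pairs this cannot show whether same-numbered libraries share more than a number. The numbers of the morula columns do not overlap.

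Isoform shares kept direction and side of the threshold under 301 changes of setting between tissues. Between diets no share could pass, so only direction can be read; it was kept under 44 changes in sperm and 35 in morulae, and turned for Ldhb in sperm (-9.45 to 0.993 points without 1 library) and Gapdhs in morulae (-1.03 to 0.318). Between tissues, medians in place of means left Pgk2 of morulae against round spermatids (99.6 points) and sperm (99.8 points; adjusted p = 0.0909 for both, exact permutation test), and Ldhb of liver against eWAT (-8.75 points) and gastrocnemius (-3.80 points; adjusted p = 0.0682 for both, exact permutation test), above the threshold, and turned Pgam2 of spermatids against sperm (-0.115 points) and Ldhb of eWAT against gastrocnemius (4.95 points; 0.625 points per kb). Without 1 library, spermatids less sperm ran from 0.150 to 0.435 points for Gapdhs, -0.231 to 0.0219 for Pgk2 and -0.128 to 0.332 for Pgam2, and eWAT less gastrocnemius from -2.32 to 3.79 for Ldhb. The length of the longest coding transcript, chosen after seeing the data, changed no call. Few counts limit the somatic forms in sperm and the 3′ libraries.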
